A study of Rattus norvegicus with 96 samples.

Results

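The genes followed here across the rat brain were 9 markers of astrocytes, namely Gfap, Aqp4, Slc1a2, Slc1a3, Aldh1l1, Gja1, S100b, Glul and Aldoc. They were taken by gene symbol, each through the probe set with the highest mean signal among those annotated to that symbol alone, and all 9 were on the array, which carried 14218 such genes. Total RNA had been microdissected from 8 regions of the reward and stress circuits: the medial prefrontal cortex (mPFC), the core and shell of the nucleus accumbens (NAcC and NAcSh), the central and basolateral amygdala (CeA and BLA), dorsolateral and ventral parts of the bed nucleus of the stria terminalis (the dlBNST and vBNST), and the ventral tegmental area (VTA). Adult male Wistar rats formed 3 groups. Non-dependent rats had self-administered 10% alcohol for 4 weeks without vapor. Dependent rats had the same training followed by 4 weeks of intermittent alcohol vapor, and were killed in protracted abstinence, 3 weeks after the vapor ended. Both trained groups were offered alcohol again after the vapor period. The paper dates the killing of its rats to 3 weeks after their last session and the vapor, without separating the trained groups. Naive rats were age-matched and had no alcohol, and whether they had any lever training is not given, so training and alcohol cannot be told apart in a comparison with them. Each region and group had 4 arrays, 96 in all.

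Astrocytes take up the glutamate that neurons release through the transporters encoded by Slc1a2 (GLT-1) and Slc1a3 (GLAST) and convert it to glutamine with glutamine synthetase, the product of Glul. They share ions and metabolites through gap junctions of the connexin encoded by Gja1, move water through aquaporin-4 (Aqp4) at their endfeet on blood vessels, and hold an intermediate filament skeleton of glial fibrillary acidic protein (Gfap), whose transcript is known to rise when astrocytes react to injury. Aldh1l1 encodes a folate enzyme, Aldoc the brain aldolase of glycolysis and S100b a calcium-binding protein. Of these, S100b and Glul are also known in oligodendrocytes. Each array measured all cells of a dissected piece of tissue, so fewer astrocytes and less transcript per astrocyte cannot be told apart.

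The rule that chose the genes left out 4 arrays (CeA non-dependent replicate 2, BLA non-dependent replicate 3, VTA non-dependent replicate 2 and vBNST dependent replicate 1), and the remaining 92 had medians between 3.81 and 3.94 on the log2 scale. The marker transcripts named for the regions were mostly where the labels place them. Th (tyrosine hydroxylase) and Slc6a3 (dopamine transporter) averaged 9.61 and 10.48 in the VTA, where no other region passed 3.76 and 3.15. Slc17a7, a vesicular glutamate transporter, averaged 11.38 in the mPFC and 7.41 in the BLA against at most 3.74 elsewhere. Prkcd, a CeA marker, did not set that region apart, with 5.13 in the CeA and 4.37 to 4.84 in the others. RNA input was 30 or 50 ng depending on the region, and the labels do not say which regions had which, so input and region cannot be told apart.

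Among regions, the mPFC gave the highest mean signal for 7 of the 9 genes, namely Gfap, Slc1a2, Aldh1l1, Gja1, S100b, Glul and Aldoc. Aqp4 went the other way, with its lowest mean in the mPFC and its highest in the VTA, and Slc1a3 was highest in the CeA and lowest in the VTA. Gfap varied most, over a range of 3.79 on the log2 scale (13.9-fold), and Gja1 least, over 0.33 (1.26-fold). A fit of limma over the 92 arrays, with a mean for each of the 24 combinations of region and group, tested 8 of the genes. Aldh1l1 did not pass the filter of a mean above 4 over those arrays. All 8 differed between regions after Benjamini-Hochberg adjustment, but so did 99.7% of the 8762 genes tested. Of 224 comparisons between regions for these genes, 153 passed the threshold (68.3%), against 67.9% over all genes, so regional difference as such did not set the astrocyte genes apart. Of the 8 genes tested, 6 were highest in the mPFC, as were 2675 of the 8762 genes (30.5%). This fit treats the arrays as independent although 4 rats per group gave all 8 regions, and arrays could not be tied to rats. If arrays of a rat deviate together, p-values of groups averaged over regions are too small and those between regions too large.

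**Figure D1:**
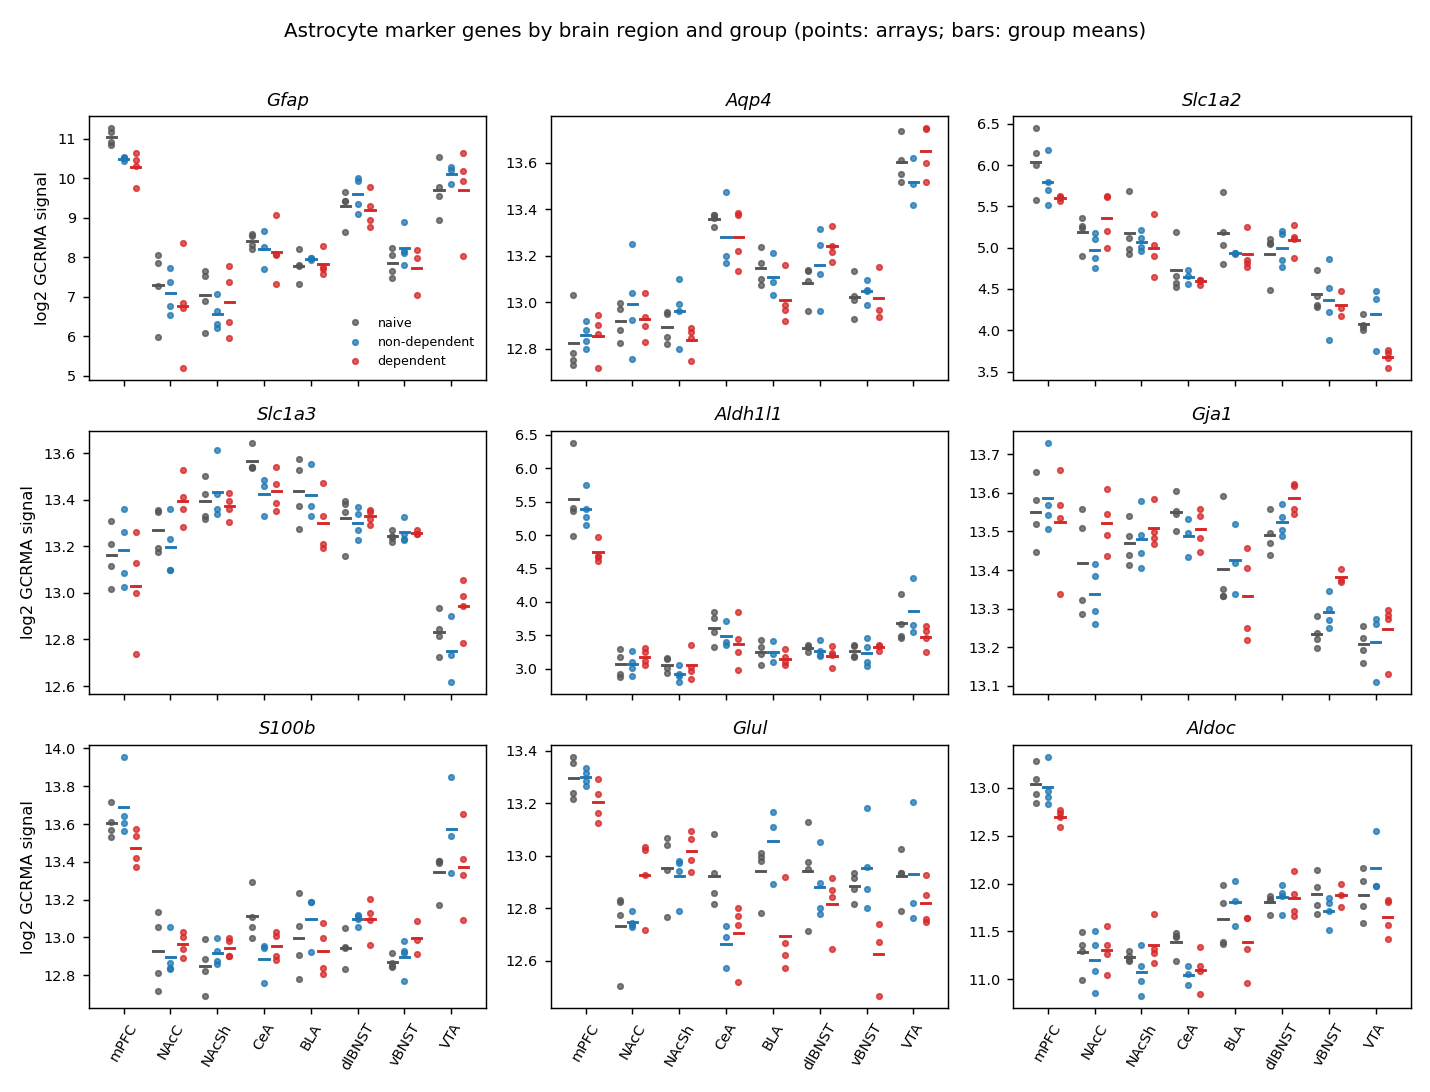
Log2 GCRMA signal (vertical axis, a separate scale for each gene) of the 9 astrocyte marker genes in the 8 brain regions (horizontal axis). Points are arrays, 3 or 4 for each region and group, short bars are group means, and colours give the naive, non-dependent and dependent groups. Gfap spans 3.79 between the mPFC and the NAcSh, Aqp4 peaks in the VTA, and Aldh1l1 stands between 4.62 and 6.38 in the mPFC and at most at 4.36 elsewhere.

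Gfap, the filament protein gene, was read in the mPFC at 9.77 to 11.27 (median 10.52, n = 12 arrays) and in the NAcSh at 5.97 to 7.78 (median 6.77, n = 12). In the VTA it ran from 8.03 to 10.64 with a median of 9.94 (n = 11), and in the NAcC from 5.20 to 8.37 with a median of 7.06 (n = 12). No mPFC array came within the range of either accumbens subregion. The order of its region means was mPFC 10.62, VTA 9.84, dlBNST 9.36, CeA 8.26, vBNST 7.94, BLA 7.86, NAcC 7.06 and NAcSh 6.83. Of the neighbours in that order, the mPFC and VTA differed (limma, adjusted p = 0.0041), as did the dlBNST and CeA (5.9e-05) and the BLA and NAcC (0.0032), while the VTA and dlBNST (0.082), the CeA and vBNST, the vBNST and BLA and both accumbens subregions did not pass. Within a region and group, Gfap also had the widest spread of the 9 genes, with a pooled SD of 0.61 against 0.078 to 0.25 for the others. The sequence around its annotated start is shown because Gfap carried the largest regional difference. It comes from RefSeq on the rat build GRCr8, chr10:88361612-88361911 on the minus strand, from 250 bases before the start to 50 after it:
Gfap: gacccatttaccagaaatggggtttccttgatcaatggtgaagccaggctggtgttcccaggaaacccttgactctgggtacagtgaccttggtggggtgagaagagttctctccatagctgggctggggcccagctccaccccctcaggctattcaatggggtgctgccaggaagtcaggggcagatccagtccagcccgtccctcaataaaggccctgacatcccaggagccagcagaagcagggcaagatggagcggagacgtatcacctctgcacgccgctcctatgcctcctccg
Short motifs were searched on both strands, and none was in this window. They were the TATA box (TATAAA), held by 14.2% of 33469 rat promoters of the same length, the box named CCAAT, held by 37.5%, the AP-1 site (TGANTCA), held by 7.33%, the STAT site (TTCNNNGAA), held by 8.87%, and the half-site of NFI (TTGGC), held by 45.8%. Matches of the CCAAT box and the NFI half-site can overlap. Capitals mark matches in the sequences printed here.

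Aldoc and S100b, the glycolytic enzyme and the calcium-binding protein, were highest in the mPFC as well. Aldoc ran from 12.59 to 13.32 in the mPFC (median 12.87, n = 12) and from 10.84 to 11.48 in the CeA (median 11.14, n = 11), so that the lowest mPFC array was above every array of the other regions, the highest of which read 12.55 in the VTA. Its mPFC mean exceeded that of the VTA, next in order, by 1.01 (limma, adjusted p = 3.9e-17). S100b ran from 13.37 to 13.96 in the mPFC and from 13.09 to 13.85 in the VTA, so these regions overlapped, though their means differed by 0.16 (adjusted p = 0.0097). The other 6 regions had means of S100b between 12.90 and 13.05. No neighbours among them differed, although the highest and lowest, the dlBNST and NAcSh, did (limma, adjusted p = 0.018).

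Through the chosen probe sets, the enzyme and transporters of glutamate clearance did not share a regional order. The probe set of Slc1a2 was much dimmer, with a mean of 4.90 against 13.3 for Slc1a3 and 12.9 for Glul. Only 49.5% of all genes were dimmer than Slc1a2. The other probe sets of Slc1a3 were highest in the mPFC, as described below. Glul ran from 13.13 to 13.38 in the mPFC (median 13.28, n = 12) against 12.52 to 13.08 in the CeA (median 12.77, n = 11), and the gap between the mPFC and the next region, the NAcSh, was 0.30 (limma, adjusted p = 6.4e-07). From the NAcSh down to the CeA no neighbours differed for Glul, although the NAcSh and CeA themselves did (limma, adjusted p = 0.00081). Slc1a2 had its means in descending order from the mPFC (5.81) through the NAcC (5.17), NAcSh, BLA and dlBNST (5.01) to the CeA (4.66), vBNST (4.37) and VTA (3.98). The mPFC and NAcC differed (limma, adjusted p = 6.1e-08), and no step among the NAcC, NAcSh, BLA and dlBNST passed. Each of the last 3 steps passed (0.0025, 0.014 and 0.0010), although the VTA mean was below the filter and near the array medians, so that the size of the last step is uncertain. Slc1a3 had its lowest values in the VTA, 12.62 to 13.05 (median 12.84, n = 11), against 13.33 to 13.65 in the CeA (median 13.49, n = 11), and these ranges did not overlap. The mPFC was next to lowest at 13.13 and differed from the vBNST above it (adjusted p = 0.018) and the VTA below it (5.3e-07).

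At the endfeet and junctions, Aqp4 and Gja1 ran in different directions. Aqp4 ran from 13.42 to 13.75 in the VTA (median 13.60, n = 11) and from 12.72 to 13.03 in the mPFC (median 12.85, n = 12). The VTA and mPFC did not overlap, whereas CeA arrays reached 13.47, inside the VTA range, and the VTA mean exceeded that of the CeA by 0.28 (limma, adjusted p = 6.2e-07). Below the dlBNST no neighbours differed for Aqp4, although the BLA and mPFC did (limma, adjusted p = 9.4e-06). Gja1 moved from 13.55 in the mPFC to 13.22 in the VTA, and no neighbouring regions differed at any step, although 18 of its 28 comparisons between regions passed. Of the genes tested, 1.8% had a smaller range over regions.

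Aldh1l1, the folate enzyme gene, was read in the mPFC at 4.62 to 6.38 (median 5.21, n = 12), and its mean over any other region did not pass 3.67. The highest array outside the mPFC was 4.36, in the VTA. It therefore passed the filter in the mPFC alone, and its regional difference of 2.21 is given without a test. The lower end of that difference, 3.01 in the NAcSh, was below the median of every array.

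The probe sets chosen for Aqp4, Slc1a3, Gja1, S100b, Glul and Aldoc averaged 11.7 to 13.4 in a data set whose highest value was 14.8. Over the 388 genes with a mean above 12, the median range over regions was 0.62, against 1.25 over all 8762 genes. Ranges of Aqp4 (0.74), Slc1a3 (0.64), S100b (0.69), Glul (0.50) and Gja1 (0.33) were closer to the former than to the latter, whereas that of Aldoc, the dimmest of these 6, was 1.73. Whether the scale is compressed at its upper end was not tested.

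Other probe sets of the same genes gave other regional orders. For 5 of the genes 9 further probe sets had not been chosen, and 5 of these were highest in the mPFC. Both unused probe sets of Slc1a3 were highest in the mPFC, at 7.34 against 4.15 to 5.46 elsewhere and at 6.85 against 3.33 to 5.02, whereas the chosen probe set was near its lowest there. They shared with it the lowest value in the VTA. Both unused probe sets of Glul were highest in the mPFC like the chosen one, at 9.57 against at most 8.62 and at 5.62 against at most 3.75. The unused probe set of Slc1a2 was lowest in the VTA like the chosen one, at 4.16, and was highest in the NAcSh, level with the mPFC to the second decimal (4.69). For Aqp4 the unused probe sets were highest in the dlBNST (7.83) and in the mPFC (6.29), and neither peaked in the VTA. When all probe sets of a gene were averaged, the mPFC was highest for 7 of the 9 genes still, but these now included Slc1a3 and no longer Gja1, whose unused probe sets averaged 3.17 and 2.96, below the array medians, and Aqp4 was highest in the dlBNST. With each array centred on its median, the count was 6, since the highest mean of Gja1 moved to the dlBNST. The regional direction of Slc1a3, Aqp4 and Gja1 therefore rested on the probe set or the scaling. Slc1a2 and Glul stayed highest in the mPFC in both settings. Gfap, Aldh1l1, S100b and Aldoc have 1 probe set each, so that only the centring could have moved them, and it did not.

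**Figure D2:**
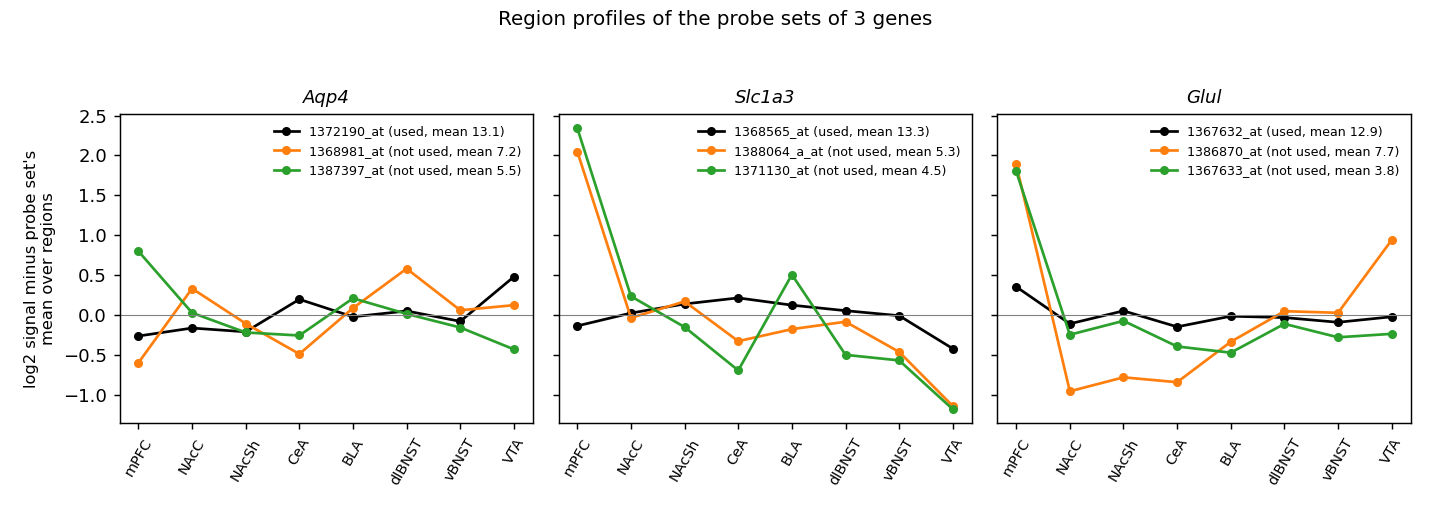
Region means of each probe set of Aqp4, Slc1a3 and Glul minus that probe set's own mean over the 8 regions (vertical axis, log2), by region (horizontal axis). Black lines are the chosen probe sets and coloured lines the others. For Slc1a3 the chosen probe set lies below its mean in the mPFC while both others lie more than 2 above theirs.

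Arrays of the same region and group also differed from one another, and some of the genes deviated together. Over the 92 arrays, deviations from the mean of their region and group correlated above 0 for 33 of the 36 pairs of genes, with a median Pearson's r of 0.15. No such values over other genes are given, so whether this was particular to these genes was not tested. Slc1a3 and Gja1 had the highest value, 0.78, and it lay between 0.49 and 0.91 within each of the 8 regions. Gja1 with S100b, Slc1a3 with S100b and S100b with Aldoc each gave 0.58, and Gfap with Aqp4 0.45. These arrays share region, rats and processing, and the deviations of Gja1 and Slc1a3 also followed the mean of the 18 hybridization control probe sets, with r of 0.43 and 0.42, as did those of Glul (0.37), Aldoc (0.34) and S100b (0.30). The part of these controls in the shared deviations was not tested. For Slc1a2 r was 0.17, and for Gfap, Aqp4 and Aldh1l1 it lay between -0.052 and 0.016. Over the 8 region means the picture differed, with 24 of 36 pairs above 0 and values from -0.81 for Aqp4 with Slc1a2 to 0.90 for Gfap with S100b.

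**Figure D3:**
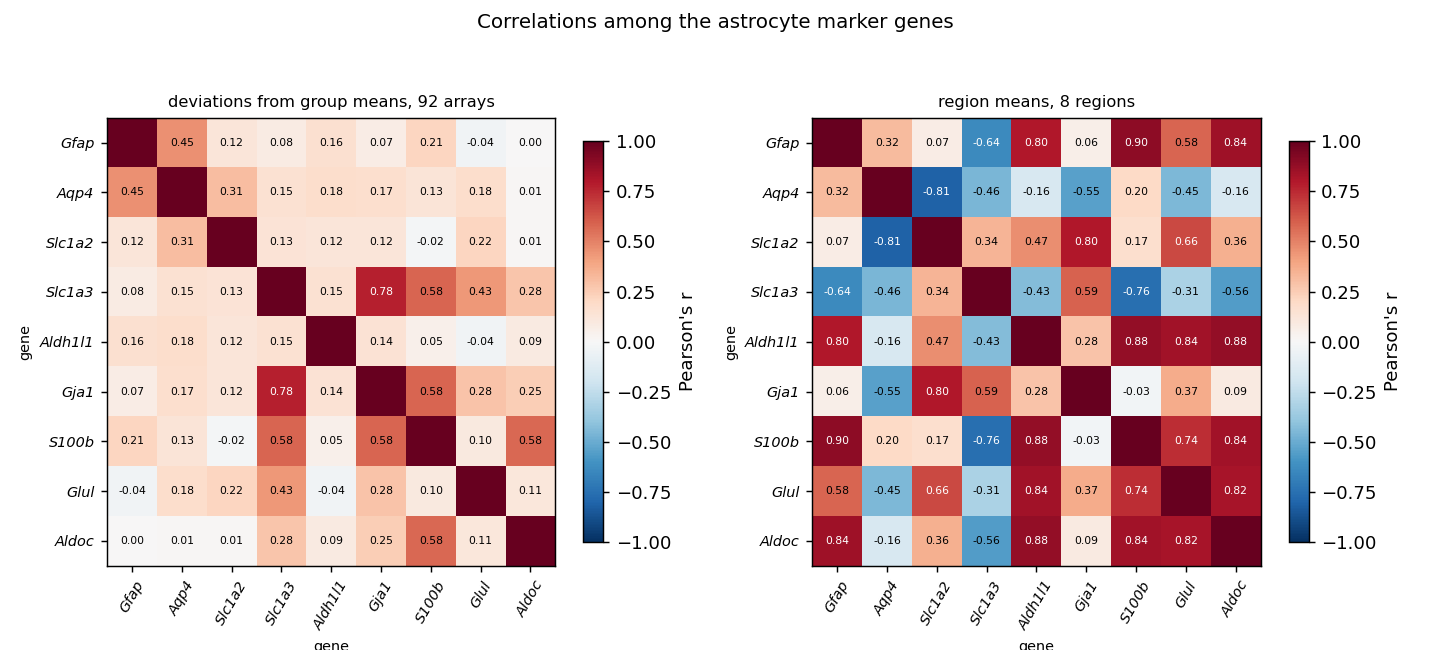
Pearson's r for each pair of the 9 genes, on a colour scale from -1 to 1, over deviations of 92 arrays from their region and group means (left) and over 8 region means (right). Slc1a3 and Gja1 give 0.78 on the left, and Slc1a3 with S100b turns from 0.58 on the left to -0.76 on the right.

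The sequences at the starts of Slc1a3 and Gja1 are shown because this pair deviated together most. Both come from RefSeq on GRCr8, at chr2:59557759-59558058 on the minus strand, 1 of 3 starts listed for Slc1a3, and at chr20:36302314-36302613 on the plus strand:
Slc1a3: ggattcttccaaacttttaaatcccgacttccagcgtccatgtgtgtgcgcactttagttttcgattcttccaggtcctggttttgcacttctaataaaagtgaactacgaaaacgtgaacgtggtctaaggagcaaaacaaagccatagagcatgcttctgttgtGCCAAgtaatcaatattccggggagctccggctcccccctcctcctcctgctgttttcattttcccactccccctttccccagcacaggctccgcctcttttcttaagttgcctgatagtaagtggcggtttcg
Gja1: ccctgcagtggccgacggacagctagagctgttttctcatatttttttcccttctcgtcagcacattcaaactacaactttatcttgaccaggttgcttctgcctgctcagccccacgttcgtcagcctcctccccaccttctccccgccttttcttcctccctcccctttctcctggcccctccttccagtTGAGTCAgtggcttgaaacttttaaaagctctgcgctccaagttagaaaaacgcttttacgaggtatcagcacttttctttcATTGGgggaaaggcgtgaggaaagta
With positions counted from the start of the gene, Slc1a3 held the NFI half-site on the reverse strand at -84. Gja1 held the AP-1 site at -58 and the CCAAT box on the reverse strand at 25. These windows had none of the motifs in common.

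Between the groups of rats within a region, no difference in the 9 genes passed the threshold. With limma, 1 fit per region and adjustment over all genes of that region, 64 tests of these genes were possible in each comparison, since Slc1a2 did not pass the filter in the VTA and Aldh1l1 passed in the mPFC alone. Naive and non-dependent rats gave 0 calls of 64 (0.0101% over all genes), non-dependent and dependent rats 0 of 64 (0 over all genes) and naive and dependent rats 0 of 64 (0.0202%). At an unadjusted p under 0.05, limma marked 3, 6 and 8 of the 64, or 4.69%, 9.38% and 12.5%, where 7.84%, 7.17% and 11.3% of the tests over all genes did so. A t-test, the statistic by which the study's methods rank genes, marked 5, 7 and 11 of the 64, and 0 in each after adjustment. Its share over all genes was not counted, so these counts cannot be set against the limma shares. The comparisons share groups of arrays and are not independent of each other.

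The largest differences between naive and dependent rats were those of Aldh1l1 and Gfap in the mPFC. Gfap read 10.85, 10.93, 11.18 and 11.27 in naive rats. Non-dependent rats gave 10.44, 10.51, 10.51 and 10.53, and dependent rats 9.77, 10.33, 10.46 and 10.64. All naive arrays were above all others, and the difference from naive to dependent was -0.76 ± 0.17 (SE, limma, adjusted p = 0.11), and that from naive to non-dependent -0.56 ± 0.17 (0.13). Without mPFC dependent replicate 3, that from naive to dependent was -0.87 and passed (adjusted p = 0.012), and with array weights it was -0.78 (0.023). Hybridization controls in these arrays averaged 9.49 for naive, 10.21 for non-dependent and 9.62 for dependent rats, and the oligodendrocyte and myelin markers 8.41, 8.08 and 8.02. The part of either was not tested. Over all genes in the mPFC, 17.7% had an unadjusted p under 0.05 from naive to non-dependent rats and 17.1% from naive to dependent rats (limma). How many of all genes separated without overlap was not counted, here or for the separations given below.

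Aldh1l1 in the mPFC read 4.98, 5.36, 5.41 and 6.38 in naive rats. Non-dependent rats gave 5.15, 5.27, 5.39 and 5.74, and dependent rats 4.62, 4.68, 4.69 and 4.98. Dependent arrays lay below the other groups, although the highest of them and the lowest naive array were level to the second decimal, and the difference from naive to dependent rats was -0.79 ± 0.24 (SE, limma, adjusted p = 0.15). For Aldoc the naive arrays read 12.84, 12.93, 13.09 and 13.28. Those of non-dependent rats read 12.83, 12.90, 12.97 and 13.32, and those of dependent rats 12.59, 12.69, 12.73 and 12.77, below all others (-0.34 ± 0.13 from naive rats, adjusted p = 0.22). Slc1a2 averaged 6.04 in naive and 5.60 in dependent rats with overlapping arrays (adjusted p = 0.24). All 9 genes were lower in the mPFC of dependent than of non-dependent rats, with a median difference of -0.20 against 0.0039 over all genes. None of these passed the adjusted threshold. In the BLA the 8 genes tested were likewise all lower from non-dependent to dependent rats, with a median of -0.13 against 0.019 over all genes, again with no call. Hybridization controls of those arrays were at 9.79 to 9.94 in the non-dependent and 7.76 to 9.81 in the dependent group, and their part was not tested.

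In the CeA all 8 genes tested were lower in both alcohol groups than in naive rats, with median differences of -0.17 in non-dependent and -0.15 in dependent rats, where the medians over all genes were 0.0055 and -0.018. Glul read 12.82, 12.86, 12.93 and 13.08 in naive rats. The 3 non-dependent arrays gave 12.57, 12.69 and 12.73, and dependent rats 12.52, 12.74, 12.77 and 12.80. No array of either alcohol group reached the naive range, and the differences were -0.26 ± 0.11 and -0.22 ± 0.10 (SE, limma, adjusted p = 0.72 and 0.68). The oligodendrocyte and myelin markers moved with these genes in the same arrays, with a mean of 8.46 to 8.59 for naive, 8.06 to 8.33 for non-dependent and 7.71 to 8.11 for dependent rats, as did the microglial markers (means of 5.22, 5.10 and 5.03). The difference between the 3′ and 5′ probe sets of beta-actin, a sign of RNA quality, averaged 6.59 in naive arrays (6.22 to 7.04), 7.34 in non-dependent (7.14 to 7.50) and 7.19 in dependent (6.55 to 7.45). The part of each was not tested.

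**Figure D4:**
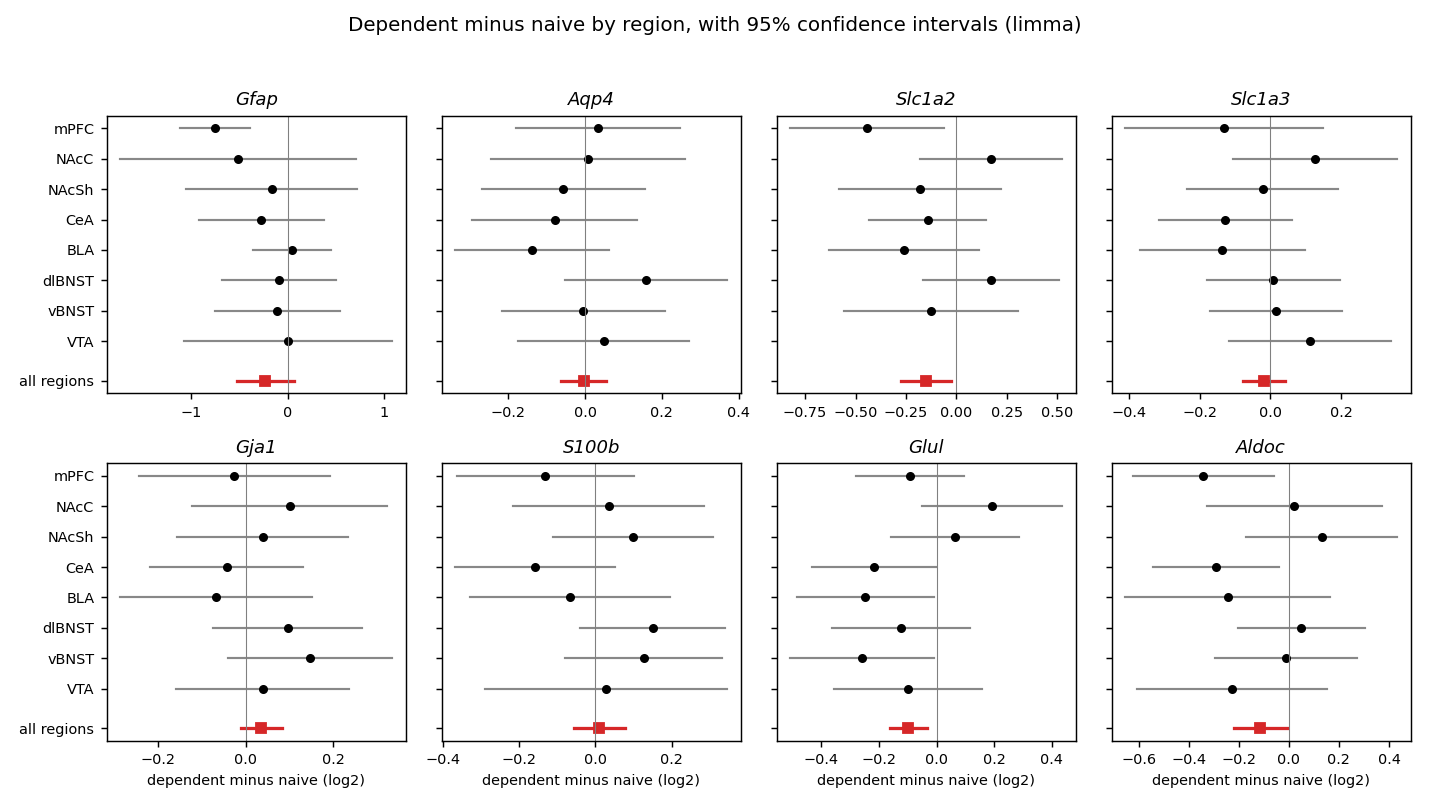
Difference of dependent from naive rats (horizontal axis, log2, a separate scale for each gene) for 8 of the genes in each region (black points) and averaged over the 8 regions (red squares), with 95% confidence intervals from limma. Slc1a2 has no point in the VTA, where it did not pass the filter. Glul averaged over regions lies at -0.098 with an interval that leaves out 0, and it is above 0 in the NAcC and NAcSh.

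Averaged over the 8 regions, Glul was lower in dependent than in naive rats by 0.098 on the log2 scale, and it was the only gene of the 8 called in any of the 3 comparisons (limma, -0.098 ± 0.033 SE, adjusted p = 0.035). Its group means were lower in 6 of 8 regions. In the BLA naive rats gave 12.78, 12.98, 13.00 and 13.01, non-dependent rats 12.89, 13.11 and 13.17, and dependent rats 12.57, 12.62, 12.67 and 12.92. In the vBNST the naive arrays read 12.82, 12.87, 12.92 and 12.94, the non-dependent 12.80, 12.88, 12.96 and 13.18, and the dependent 12.46, 12.67 and 12.74. Dependent arrays thus lay below both other groups in the vBNST and overlapped them in the BLA. The NAcC ran the other way, with 12.50, 12.77, 12.82 and 12.83 in naive and 12.72, 12.93, 13.02 and 13.04 in dependent rats. The share called was 12.5% (1 of 8), and 13.1% of all genes tested were called in this comparison, 794 of 1146 of them lower. The call was lost when all 96 arrays were kept (-0.085, adjusted p = 1.0), when the probe sets of Glul were averaged (-0.066, 0.42), without the mPFC arrays (-0.098, 0.073) and on leaving out any of 7 single arrays.

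For the remaining genes the differences from naive to dependent rats over all regions were -0.23 ± 0.15 for Gfap (SE, limma, adjusted p = 0.30), -0.15 ± 0.063 for Slc1a2 (0.095) and -0.11 ± 0.053 for Aldoc (0.14). Aqp4, Slc1a3, Gja1 and S100b differed by between -0.019 and 0.035, with 95% confidence intervals that reached from -0.078 to 0.082 at most. Against naive rats, non-dependent rats gave 0 calls of 8 (2.6% of all genes). From non-dependent to dependent rats there were also 0 of 8 (0.787% of all genes), and Glul differed by -0.080 ± 0.034 (limma, adjusted p of 0.26). Whether group differences themselves varied between regions was tested with an interaction of region and group. It called 0 of the 8 genes and 2.35% of all genes, with Glul nearest at an adjusted p of 0.080 and Aldoc next at 0.18.

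Other genes of astrocytes were taken from lists chosen with earlier results of these data known. Of 62 listed, 54 were on the array and 35 passed the filter over all regions. In the mPFC 16 of the 35 were highest (45.7%, against 30.5% of all genes) and in the VTA 8, where 1964 of the 8762 genes were highest. The regional examples that follow were chosen after their values were seen. Apoe, the lipid carrier, averaged 10.32 in the mPFC against 3.49 to 5.82 in the other regions. Lhx2, a homeobox factor of the forebrain, averaged 9.16 in the mPFC and 2.85 in the VTA. The connexin genes Gjb6 and Gjb2, which like Gja1 form astrocyte gap junctions, were highest in the VTA (10.54 and 9.10), where Gja1 was lowest. Within regions 0 of 287 tests passed in each comparison of groups.

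Over all regions, 5 of the 35 passed from naive to dependent rats (14.3% against 13.1% of all genes). Those lower were Apoe (-0.48 ± 0.15 SE, limma, adjusted p = 0.030), Agt, which encodes angiotensinogen (-0.44 ± 0.11, 0.0038), Acsbg1, an acyl-CoA synthetase gene (-0.23 ± 0.071, 0.021), and Glud1, glutamate dehydrogenase (-0.13 ± 0.034, 0.0072). Nfia, a factor of gliogenesis, was higher (0.18 ± 0.047, 0.0086). Apoe was also lower in dependent than in non-dependent rats (-0.59 ± 0.16, 0.049). Its means in the NAcC (3.60) and NAcSh (3.49) were below the filter and the array medians, so the size of its differences over all regions is uncertain. Of the genes of reactive astrocytes, 3 passed the filter and none was called between groups over all regions. They were Vim, an intermediate filament gene (region means 6.54 to 8.65, 0.38 ± 0.21 from naive to dependent rats, limma, adjusted p = 0.23), the signalling factor gene Stat3 (4.60 to 5.81, 0.090 ± 0.095, 0.57) and Mt2A, a metallothionein gene (4.98 to 7.28, -0.013 ± 0.059, 0.91). Of the others below the filter, Serpina3n and Lcn2 were between 1.98 and 2.32 in every region mean. Lgals1 and C3 missed the filter over all regions but averaged 7.01 and 5.01 in the VTA and 4.59 and 4.17 in the mPFC.

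Markers of other cells were read in the same arrays. All 9 oligodendrocyte and myelin genes tested were highest in the VTA, by a median of 1.56 over their own means, and in the mPFC their median was -0.26. From naive to dependent rats over all regions all 9 were lower (median -0.20, against -0.033 over all genes) and 3 passed (33.3%, against 13.1% of all genes), Mal, Mbp and Ugt8, and the mean of the list ran from 7.27 to 10.40 in naive and from 7.29 to 9.92 in dependent rats. Ugt8, 1 of the 3 called, averaged 6.70 in the VTA and 3.52 to 4.12 elsewhere. Opalin, another of the 9, averaged 5.65 in the VTA and 3.37 to 4.52 elsewhere. Both passed the filter largely through the VTA and were near the array medians in most other regions. The size of their differences over all regions is therefore uncertain. The part of the oligodendrocyte and myelin genes in the value of Glul was not tested. Of 10 pan-neuronal genes 3 passed (30%), Nefm, Stmn2 and Tubb3, all lower, but 5 of the 10 were higher and the median of the list was -0.00077. Of 4 microglial genes 1 passed (25%), Csf1r, which was lower (limma, adjusted p = 0.011), and the median of the list was -0.14. By region, 6 of the 10 pan-neuronal and 3 of the 4 microglial genes were highest in the mPFC, as were 6 of the 8 astrocyte genes tested. Medians there were 0.45, 0.29 and 0.42 over the genes' own means, so a peak in the mPFC was not particular to the astrocyte genes.

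The genes whose 24 means of region and group were most like the mean standardized profile of the 9 genes were Srebf1 (Pearson's r = 0.94), C19h1orf198, Adgrb2, Cdc37, Ifngr1, Mapk8ip1, Trip6, Pcbp4, Sympk and Gtf2i (0.92), none of them in the list of other astrocyte genes. Taken singly, the closest genes were Pea15 to Gfap (0.98), Aldoa to Aldoc (0.98), Plekhm2 to Aldh1l1 (0.98), Arf3 to Slc1a2 (0.95), Dennd5a to S100b (0.95), Gng12 to Aqp4 (0.94), Nim1k to Slc1a3 (0.93), Adnp to Gja1 (0.87) and Cables1 to Glul (0.82). These values describe likeness over 24 means that share regions and were chosen as the highest of all genes tested.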

How the data were processed

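Total RNA from microdissected tissue was amplified, labelled and hybridized to Affymetrix rat arrays. Per the labels, the authors ran GCRMA 2.36.0 in R 3.03, and the deposited table gives its log2 output, 1 column for each of 96 samples. Of 31099 probe sets, 20832 name 1 gene, 436 several and 9831 none in the platform annotation, and those with 1 gene were kept, with the probe set of the highest mean per gene (14218 genes).

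These values were fitted without rescaling in limma 3.58.1 (R 4.3.3), with 1 fit per region (means above 4 over its arrays) and 1 fit over all regions with a mean for each of 24 region-by-group cells (8762 genes with means above 4 over 92 arrays). Benjamini-Hochberg adjustment covered all genes of a fit, or all genes and 28 pairs of regions together, at 0.05. The labels do not say which arrays came from the same rat, and the number of arrays limits the precision. Scripts were tested on simulated data. Alternatives were all 96 arrays, other filters on dim genes, quantile and median scaling, averaged probe sets, array weights, the replicate number as a block, arrays of 2 groups alone, the methods' t-test, naive arrays alone and leaving out each array. The fit without the mPFC was chosen after seeing the data. The 9 genes, the 4 arrays left out, and the lists of other astrocyte, oligodendrocyte, neuronal and microglial genes were chosen with earlier results of these data known. Named genes were the 9, at most 4 called genes of a list with exceptions given as such, and the closest profiles. Promoters were taken from RefSeq (GRCr8), where all 9 genes matched. Descriptions and figures were made in Python 3.11.15.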

Additional observations from a re-analysis of the deposited data

Results flagged for a closer look

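Within 180 groups of 4 arrays, 8 values of the 9 genes lay apart from the other 3 of their group by more than Dixon's 95% critical value, and chance gives about 1 in 20 such groups. Slc1a2 read 4.48 in dlBNST naive replicate 3 against 5.05 to 5.11 in the others, the widest gap of these. The highest of their groups were Slc1a3 at 13.65 in CeA naive replicate 1, Gja1 at 13.59 in BLA naive replicate 4 and S100b at 13.06 in NAcC non-dependent replicate 2. Gja1 at 13.13 in VTA dependent replicate 3, S100b at 13.17 in VTA naive replicate 3, Glul at 12.78 in BLA naive replicate 3 and Aldoc at 11.20 in CeA naive replicate 4 were each the lowest of their group.

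From naive to non-dependent rats, S100b moved without overlap in opposite directions in 2 regions, by 0.15 in the dlBNST and by -0.23 in the CeA. The difference between those regions was not tested on its own, and the interaction of region and group over all regions gave an adjusted p of 0.36 for S100b (limma).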

How the results depend on the processing

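Of 86 counts of calls under alternatives other than leaving out 1 array, 78 stayed within 1.5 times the reported count. With all 96 arrays kept, calls fell to 5 genes for region (Aqp4, Gja1 and Slc1a3 were lost), 69 of 224 region pairs and 0 for naive against dependent rats over all regions, and Glul from non-dependent to dependent rats turned to 0.16. Array weights gave 1 call from naive to dependent rats within regions (Gfap, mPFC) and 3 for the interaction (Glul, Slc1a2, Aldoc), and quantile normalization 1 (Glul). Fits on arrays of 2 groups alone gave 1 call from naive to non-dependent rats (Gfap, mPFC, adjusted p = 0.043). Without the mPFC arrays 0 genes were called from naive to dependent rats over all regions. With probe sets averaged, the call over all regions passed from Glul to Slc1a2 (adjusted p = 0.047). The share of all genes called was not counted under these alternatives or on leaving out single arrays. Whether a change in calls was particular to the astrocyte genes is therefore not known.

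Leaving out 1 array at a time gave 0 to 1 calls within regions from naive to dependent rats (Gfap without mPFC dependent replicate 3), 0 to 1 over all regions from naive to dependent rats, 0 to 1 for the interaction (Glul without BLA dependent replicate 2 or NAcC dependent replicate 3) and 150 to 156 region pairs. The call of Glul over all regions was lost without BLA dependent replicate 1, CeA naive replicate 1, CeA dependent replicate 1, NAcC dependent replicate 3, dlBNST naive replicate 1, dlBNST dependent replicate 3 or vBNST dependent replicate 3, with adjusted p up to 0.068. The causes were not tested.

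With the replicate number as a block within regions, 0 calls were found, and with group and number as a random replicate block over all regions 153 region pairs and 1 call from naive to dependent rats, as without blocks. Deviations of same-numbered arrays of a region had a median correlation of 0.012, so the numbers were not taken to pair the samples.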

Other observations

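The 4 arrays left out differed from their groups in these genes in different ways. CeA non-dependent replicate 2 read Aqp4 at 5.57, Gja1 at 4.61 and Slc1a3 at 5.10, where the arrays kept read 13.17 to 13.47, 13.43 to 13.53 and 13.33 to 13.49. BLA non-dependent replicate 3 read Aqp4 at 10.84 against 13.03 to 13.21 and Gfap at 9.32 against 7.94 to 7.99. In vBNST dependent replicate 1, Gfap read 10.76 against 7.04 to 8.19, S100b 13.63 against 12.91 to 13.09 and Aldh1l1 4.69 against 3.27 to 3.36, while Aqp4 was lower at 12.70 against 12.94 to 13.15. VTA non-dependent replicate 2 differed least, with Aqp4 at 12.43 against 13.42 to 13.62.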
